A study of Mus musculus with 3 samples.

Results

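The immunoglobulin constant-region genes were examined in total RNA of mouse T cells from the spleen. These genes encode the parts of antibody chains that do not vary with the antigen. The set was a list of 10 named genes out of 55536 annotated genes. It held 7 heavy-chain genes (Ighm, Ighd, Ighg1, Ighg2b, Ighg2c, Ighg3 and Igha) and 3 light-chain genes (Igkc, Iglc1 and Iglc2), and its members were chosen by their gene-table levels in these same libraries, so the levels are described and not tested. The annotation holds 13 immunoglobulin constant genes in all. Of the other 3, Iglc3 had 3.00, 1.84 and 0.67 TPM (a level scaled by transcript length and library depth) in replicates 1, 2 and 3, in which order values are given throughout, and Ighe and Iglc4 had no counts.

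All 3 libraries belong to 1 group. The cells are labelled as primary splenic T cells with a CD3 tag in the sample name, from adult virgin female mice of 66 days. The strain is B6CASTF1/J, whose mothers are C57BL/6 and whose fathers are CAST/EiJ, and no treatment or engineered allele is named in the labels. Each library was made from 300 ng of RNA with a directional kit and ERCC spike-ins, and held 16.9, 15.0 and 16.2 M estimated gene counts in replicates 1, 2 and 3. The 3 biosamples stand under 1 donor record, so SDs and p-values may hold technical spread only. The label was checked against marker genes. All 10 T-cell markers lay above 10 TPM in every library, with summed levels of 3072, 3031 and 2829 TPM. Of 12 B-cell markers none reached 10 TPM in all libraries and 6 reached 1 TPM. None was at 0, the lowest was Fcer2a at 0.48, 0.97 and 0.25 TPM, and the summed levels were 19.3, 28.1 and 14.5 TPM.

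As background, a complete antibody transcript joins a rearranged V segment (with J, and in heavy chains also D) to a constant region. Ighm and Ighd are the constant regions that naive B cells use for surface IgM and IgD, and the gamma, epsilon and alpha genes replace them after class switching. The mu locus is also transcribed before it is rearranged, from promoters near its intronic enhancer, giving germline transcripts that contain the constant exons but no V segment, and such transcripts are known from T cells as well as from B cells. Heavy-chain mRNA ends either after a secreted tail or after the membrane exons, which encode the stretch that anchors the chain in the cell surface.

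The forms of Ighm can be told apart by their 3' ends. The annotation (GENCODE M21, build mm10) gives Ighm 2 transcripts on the minus strand of chromosome 12. Both begin at the exon for the first constant domain, 113422416 to 113422730, and hold no V, D, J or upstream leader exon. Ighm-201 has 4 exons and 1493 bases and ends after the secreted tail. Ighm-202 has 6 exons and 1698 bases and includes both membrane exons. They share 1305 bases, leaving 188 bases (12.6%) of Ighm-201 and 393 bases (23.1%) of Ighm-202 that belong to one form alone. Both sequences shown begin, in lower case, with the same last 30 bases of the shared part of exon 4 (chr12:113420929-113420958), 5' to 3' in transcript sense. The capitals mark the 59 coding bases of the secreted tail for Ighm-201 (chr12:113420870-113420928) and the 116 bases of exon 5, the first membrane exon, for Ighm-202 (chr12:113418953-113419068).
Ighm-201: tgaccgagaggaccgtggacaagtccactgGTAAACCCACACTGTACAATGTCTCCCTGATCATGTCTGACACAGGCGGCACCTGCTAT
Ighm-202: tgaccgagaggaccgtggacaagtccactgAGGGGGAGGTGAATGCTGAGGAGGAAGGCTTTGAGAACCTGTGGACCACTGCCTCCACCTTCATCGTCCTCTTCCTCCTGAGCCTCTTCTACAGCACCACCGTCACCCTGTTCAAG

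Of the lambda constant genes, Iglc2 and Iglc3 are close copies and Iglc1 is less alike, which bears on how far lambda counts can be separated. A window of 120 bases at the start of each coding sequence is shown, aligned without gaps, on the minus strand of chromosome 16 in mm10, with capitals for bases that differ from Iglc2. Iglc2 lies at chr16:19198733-19198852, Iglc3 at chr16:19065562-19065681 and Iglc1 at chr16:19061952-19062071. Iglc3 differs from Iglc2 at 7 of these positions and Iglc1 at 28.
Iglc2: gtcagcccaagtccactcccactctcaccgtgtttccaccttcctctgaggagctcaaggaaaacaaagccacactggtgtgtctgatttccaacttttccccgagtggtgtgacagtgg
Iglc3: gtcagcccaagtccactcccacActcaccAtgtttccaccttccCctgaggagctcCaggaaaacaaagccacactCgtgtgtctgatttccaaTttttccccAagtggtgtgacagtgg
Iglc1: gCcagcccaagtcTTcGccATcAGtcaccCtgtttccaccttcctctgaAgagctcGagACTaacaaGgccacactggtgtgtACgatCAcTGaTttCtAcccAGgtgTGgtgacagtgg

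Over the whole coding sequence Iglc2 and Iglc3 shared 96.2% of bases, with a longest identical run of 79 bases. Iglc1 and Iglc2 shared 73.4%, with a longest run of 19 bases. Among the gamma genes the closest pair was Ighg2b and Ighg2c, at 85.7% with a run of 78 bases, and the other gamma pairs shared 74.1% to 76.3%. Ighm shared 39.7% to 47.8% with each of the other heavy-chain genes. The deposited posterior SD of the gene-level count, a measure of reads that several genes could claim, was 0 for all 10 genes. Levels of Iglc2 and of Ighg2b and Ighg2c nevertheless remain uncertain where the counting could split reads between near-identical stretches.

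Ighm, the mu constant region, was the highest of the set. It had 141.3 TPM in replicate 1, 150.9 TPM in replicate 2 and 127.2 TPM in replicate 3, a mean of 139.8 ± 11.9 TPM (SD, n = 3), from 3567, 3423 and 3197 counts. The 3 libraries lay within 1.19-fold of each other, and the gene (ENSMUSG00000076617.9, chromosome 12, 113418558 to 113422730, minus strand) ranked 318th of 22049 coding and constant-region genes by mean TPM. Trac, the constant region of the T-cell receptor alpha chain, averaged 492 ± 16.4 TPM in the same libraries (SD, n = 3), and the ratio of Ighm to Trac was 0.281, 0.301 and 0.269.

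Ighd, the delta constant region (chromosome 12, 113406604 to 113416324), is joined by alternative splicing to the same V segment as Ighm in naive B cells. It had 3.41, 5.95 and 2.83 TPM, a mean of 4.06 ± 1.66 TPM (SD, n = 3), from 99, 140 and 80 counts. Replicate 2 was highest and replicate 3 lowest. The ratio of Ighm to Ighd was 41.4, 25.4 and 44.9, so it was lowest in the library where Ighd was highest.

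The class-switched heavy-chain genes were close to the limit of what this depth can count. Ighg1 (113325240 to 113330523), the IgG1 constant region, had 18, 5 and 2 counts, or 1.08, 0.33 and 0.12 TPM, and was the only one of the 10 genes to be highest in replicate 1. Ighg2b (113302965 to 113307933), the IgG2b constant region, had 10, 26 and 12 counts, or 0.53, 1.66 and 0.69 TPM. Ighg2c (113285325 to 113288932), which C57BL/6 mice carry in place of Ighg2a, had 1, 13 and 11 counts, or 0.06, 0.83 and 0.64 TPM. All 3 spanned at least 3.13-fold between libraries, and all were under 50 counts in the sum of the 3 libraries.

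Ighg3 (113356224 to 113361232), the IgG3 constant region, had 6, 13 and 9 counts, or 0.36, 0.86 and 0.54 TPM. Igha (113254830 to 113260236), the IgA constant region, had 3, 8 and 6 counts, or 0.18, 0.52 and 0.35 TPM. Its 17 summed counts have an exact Poisson 95% interval of 9.90 to 27.2, and the 25 summed counts of Ighg1 one of 16.2 to 36.9, intervals that cover counting error only. The 4 gamma genes and Igha together had 38, 65 and 40 counts, again with the most in replicate 2.

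Among the light chains, kappa stood above lambda in every library. Igkc, the kappa constant region (chromosome 6, 70726435 to 70726966, plus strand), had 21.8, 38.9 and 14.5 TPM, a mean of 25.1 ± 12.5 TPM (SD, n = 3), from 160, 259 and 107 counts. Replicate 2 was highest and 2.68-fold above replicate 3. Iglc2 (chromosome 16, 19198396 to 19200351) had 4.24, 5.91 and 3.94 TPM from 30, 36 and 24 counts. Iglc1 (chromosome 16, 19061618 to 19062071) had 5.14, 6.05 and 2.32 TPM from 31, 33 and 14 counts. The ranges of Iglc1 and Iglc2 overlapped.

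In order of mean TPM, Ighm stood 5.58-fold above Igkc and Igkc 5.34-fold above Iglc2, and in both steps the ranges of the 3 libraries did not overlap. Iglc2, Iglc1 and Ighd followed at 4.70 ± 1.06, 4.50 ± 1.94 and 4.06 ± 1.66 TPM (SD, n = 3), and these neighbours did not differ beyond their spread. Ighd stood 4.23-fold above Ighg2b with no overlap. Ighg2b, Ighg3, Ighg1, Ighg2c and Igha then lay between 0.96 and 0.35 TPM with overlapping ranges. Of the 10 genes, 5 reached 1 TPM in all libraries and 2 reached 10 TPM, with a median of 2.51 TPM. Of all 22049 coding and constant-region genes, 44.7% reached 1 TPM and 25.4% reached 10 TPM, with a median of 0.49 TPM.

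**Figure D1:**
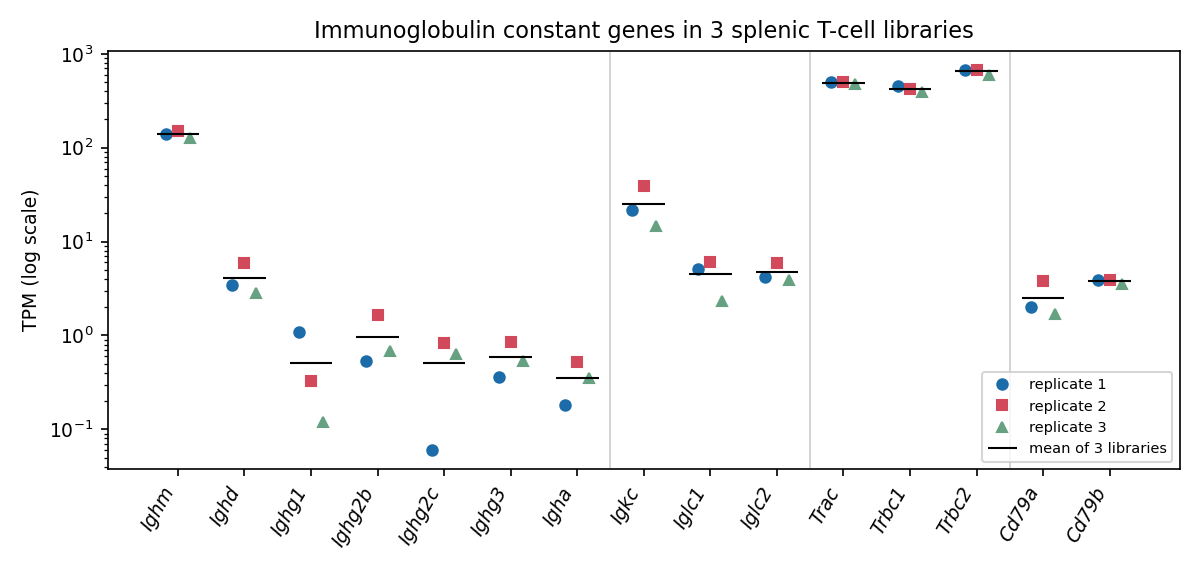
TPM on a log scale of each immunoglobulin constant gene, then of T-cell receptor constant genes and the B-cell receptor subunits Cd79a and Cd79b. Points are the 3 libraries and lines their mean. Ighm at 139.8 TPM lies nearer to Trac (492 TPM) than to Cd79a (2.49 TPM), and the gamma and alpha genes lie between 0.06 and 1.66 TPM.

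Ratios within a library put these levels side by side. Ighm made up 96.2%, 93.7% and 96.1% of the heavy-chain constant TPM, a mean of 95.3% ± 1.41 (SD, n = 3). Igkc made up 69.9%, 76.5% and 69.9% of the TPM of the 3 light-chain genes. The ratio of Igkc to Ighm was 0.154, 0.258 and 0.114, a mean of 0.175 ± 0.0741 (SD, n = 3). These 3 light-chain genes, without Iglc3, together had 0.228 ± 0.0806 of the heavy-chain TPM (SD, n = 3). The heavy chain thus exceeded the light chains in each of the 3 libraries. Together the 10 genes took 0.0237% ± 0.00254 of all gene counts, and Ighm held 89.9% ± 3.03 of those.

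Both forms of Ighm were counted, and the form without membrane exons was the higher in every library. In the first transcript table, Ighm-201, the form without membrane exons, had 79.41, 92.86 and 75.45 TPM, and Ighm-202, the form with them, had 61.85, 58.05 and 51.71 TPM. Ighm-201 thus had 56.2%, 61.5% and 59.3% of the Ighm TPM, a mean of 59.0% ± 2.67 (SD, n = 3). The deposited posterior SD was at most 3.17% of the Ighm-201 count and 4.03% of the Ighm-202 count. The second transcript table, made from the reads with an index of the same annotation, gave 93.6, 100.1 and 83.6 TPM for Ighm-201 and 72.9, 64.5 and 61.2 TPM for Ighm-202. Its share for Ighm-201 was 56.2%, 60.8% and 57.8%, and the mean shares in both tables differed by less than the spread between libraries. Most bases are common to both forms, and the split therefore rests on the 3' ends shown above and on how each quantifier shared out the rest.

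**Figure D2:**
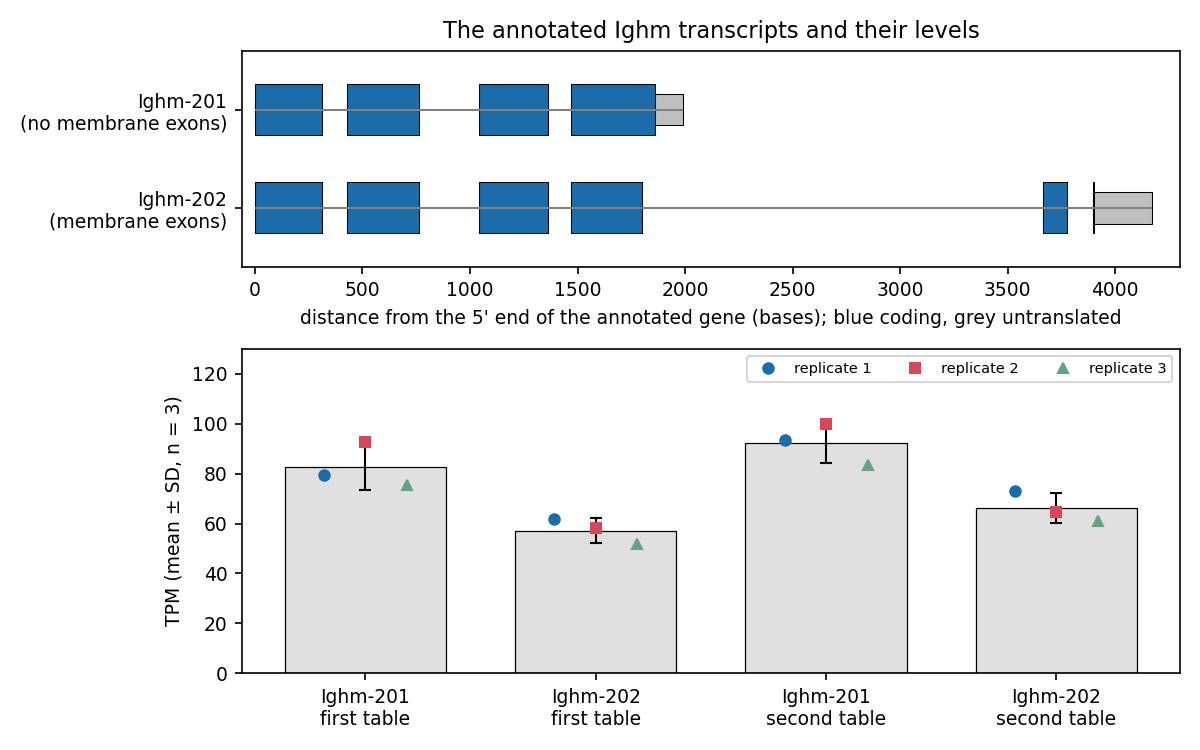
Upper panel, exons of the annotated Ighm transcripts to scale, by distance in bases from the 5' end of the gene, with coding parts in blue and untranslated parts in grey. Lower panel, TPM of each form in both transcript tables as mean ± SD with the 3 libraries as points; Ighm-201 exceeds Ighm-202 in each library and table.

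The other heavy-chain genes were not split alike. Of the Ighd TPM, 100%, 82.0% and 95.1% fell on Ighd-202, the entry with membrane exons, in the first table, and the second gave a mean of 91.0% for the same entry. Ighg1, Ighg2c, Ighg3 and Igha had all of their counts in the first table on the entry without membrane exons, as did Ighg2b except for 1.37 counts in replicate 1. In the second table Ighg2b had 7 and Igha 1.29 summed counts on the entry with membrane exons, and Ighg1, Ighg2c and Ighg3 had none. For the gamma and alpha genes these shares rest on 17 to 48 summed counts per gene in the first table and 13 to 58 in the second. Iglc2 has 2 entries, and the tables disagreed on them. The entry with 1 exon had 15.9, 24.4 and 24.0 counts in the first table but 0, 14.3 and 3.40 in the second, so no split is drawn for that gene.

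V segments were counted against constant regions, since a rearranged transcript carries a V segment and a germline one does not. The V genes were those annotated on mm10, and how well reads from CAST/EiJ alleles were counted was not tested. The kappa locus had 64, 122 and 77 V counts, spread over 59 of 100 annotated V genes, against 160, 259 and 107 counts of Igkc. That is 40.0, 47.1 and 72.0 V counts per 100 constant counts, a mean of 53.0 ± 16.8 (SD, n = 3). The lambda locus had 15, 4 and 11 V counts over its 3 V genes, or 19.0, 5.06 and 26.2 per 100 counts of Iglc1, Iglc2 and Iglc3. The heavy-chain locus had 38.8, 61.7 and 40.0 V counts over 46 of 113 V genes, against 3704, 3628 and 3317 constant counts, or 1.05, 1.70 and 1.21 per 100, a mean of 1.32 ± 0.341 (SD, n = 3). The heavy-chain locus was lowest in each library.

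On the log2 scale the V counts per constant count of kappa exceeded those of the heavy chain by 5.26, 4.79 and 5.90 in the 3 libraries, a mean difference of 5.32 ± 0.56 (SD, n = 3), or 39.8-fold. The difference was positive in 3 of 3 libraries, and the exact two-sided sign-flip permutation test gave p = 0.25, the smallest that 3 libraries allow. The gap depended on the constant gene used. Against the heavy-chain constant genes other than Ighm, with 137, 205 and 120 counts, the same V counts came to 28.3, 30.1 and 33.3 per 100, a mean of 30.6 ± 2.54 (SD, n = 3), and the log2 difference was 0.75. The numerator kept all heavy-chain V counts, including any from transcripts that join a V segment to Ighm. The ratio without Ighm thus sets V counts of the whole locus against a part of its constant counts. The denominator without Ighm was added after the data had been seen.

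T-cell receptor loci give a scale for these ratios within the same libraries. V counts per 100 constant counts were 43.0 ± 1.19 for the alpha, 25.3 ± 1.02 for the beta, 19.5 ± 2.64 for the gamma and 13.5 ± 0.247 for the delta locus (SD, n = 3 each). The heavy-chain ratio lay below all 4 in every library, while kappa lay at or above 40.0 per 100. The second transcript table gave kappa 29.99, 31.46 and 51.39 per 100, and V segments with a posterior SD of at most 5% of their count gave it a mean of 30.6 per 100. A constant region is longer than a V segment, by a different factor in each locus, so these are not levels per length. In TPM, kappa V segments summed to 14.1, 29.8 and 16.9, against 21.8, 38.9 and 14.5 for Igkc. Heavy-chain V segments summed to 8.46, 15.4 and 8.93 TPM, against 147, 161 and 132 TPM for the heavy-chain constant genes and 5.62, 10.2 and 5.17 TPM for those other than Ighm.

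**Figure D3:**
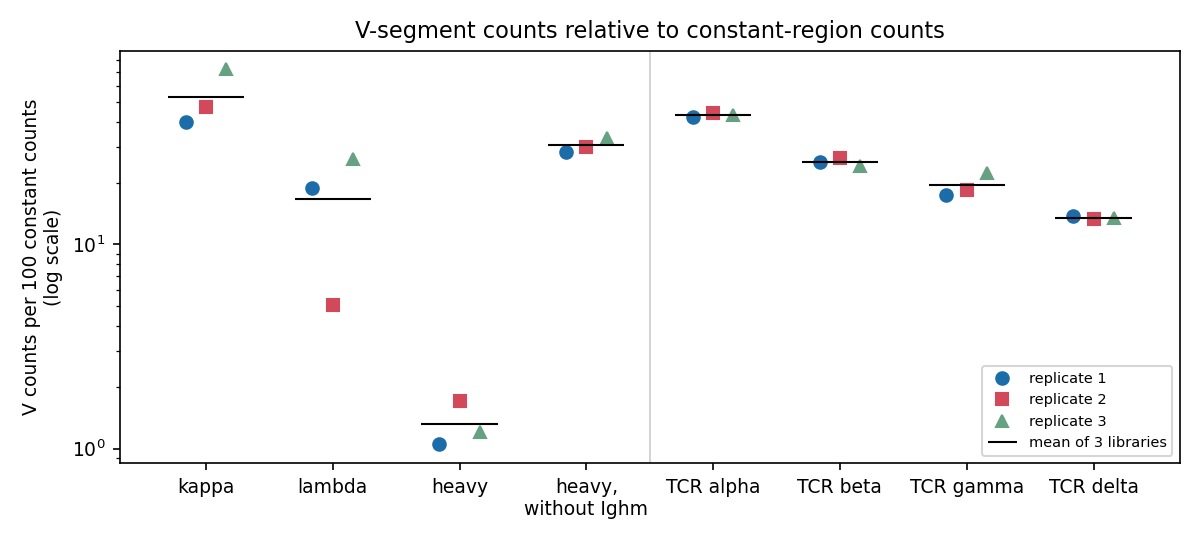
V-segment counts per 100 constant-region counts on a log scale for each immunoglobulin and T-cell receptor locus, with the 3 libraries as points and their mean as a line. The heavy-chain locus lies near 1.32 with Ighm in the denominator and near 30.6 without it, with all its V counts kept in both. The T-cell receptor loci lie between 13.5 and 43.0.

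No V gene stood out by its counts in all 3 libraries. The highest heavy-chain V genes were Ighv14-2 with 0, 7 and 8 counts, Ighv2-9 with 0, 3 and 7, and Ighv6-3 with 1, 7 and 1. In the kappa locus Igkv15-103 had 6, 16 and 5 counts, Igkv1-117 had 12.0, 2.40 and 8.57, and Igkv1-110 had 0, 15.6 and 1.43. Iglv2, Iglv1 and Iglv3 had 15, 11 and 4 counts in the sum of the libraries. The order of V genes thus differed between libraries, at counts too low to rank them. The 17 heavy-chain D segments, 10 to 29 bases long, and all J segments (at most 54 bases) had an effective length of 0 in the deposited tables, so their counts of 0 say nothing of their use.

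Replicate 2 was highest for 9 of the 10 genes and replicate 3 lowest for 6, and 5 genes had both. Of all 12723 genes with a mean of at least 1 TPM, 30.1% were highest in replicate 2, 44.1% lowest in replicate 3 and 18.4% both. The gamma genes and Igha averaged under 1 TPM, so they fall outside that range of levels. Ighg2b, Ighg2c, Ighg3 and Igha were lowest in replicate 1. Relative to the mean of the 3 libraries, Igkc was at 0.868, 1.55 and 0.580, Ighd at 0.839, 1.46 and 0.696, and Iglc1 at 1.14, 1.34 and 0.515. Ighm stayed at 1.01, 1.08 and 0.910, and Trac at 1.02, 1.02 and 0.961. The set was chosen with these levels known, so the order is a description.

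The spread between libraries was set against the trend of all genes of like abundance by edgeR's quasi-likelihood dispersion (F test, Benjamini-Hochberg adjustment). Of 13280 genes tested, 75 varied beyond the trend at an adjusted p under 0.05, a share of 0.565 percent, and 1 of the 5 members tested was among them. That was Igkc (adjusted p = 0.0324 in edgeR). The members were chosen with their levels in these libraries known, so their calls are a description and not independent support. The call was lost at an adjusted p of 0.140 in edgeR's non-robust fit (0.211 percent of all genes called), of 0.898 without replicate 2 (0.623 percent called) and of 0.0974 without replicate 3 (0.258 percent called). Over all alternatives the adjusted p of Igkc ran from 1.19e-06 to 0.898. Ighd (adjusted p = 0.625 in edgeR), Ighm (0.911), Iglc1 (0.942) and Iglc2 (0.997) did not pass. At an unadjusted p under 0.05 there were 2 of the 5, Igkc and Ighd, against 5.69 percent of all genes tested. DESeq2 marked 1 member, Igkc, as outlying in dispersion, against 0.941 percent of all genes tested. The 5 gamma and alpha genes were too low to pass the filter on counts.

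Markers of other cells were summed in each library too. The 12 B-cell markers had 0.936, 1.36 and 0.703 of their mean when summed. Replicate 2 was highest for 11 of them and replicate 3 lowest for all 12. The shares among genes with a mean of at least 1 TPM were 30.1% and 44.1%, as above. Of the markers, Fcer2a and Ebf1 had means under 1 TPM. In edgeR, 0 of the 11 tested passed. Of those 11, 6 had an unadjusted p under 0.05, among them Ms4a1, Cd79a, Pax5, Cr2 and Bank1, and DESeq2 marked 1 of the 11 as outlying in dispersion. The 5 erythroid markers had 54.1, 96.6 and 42.4 TPM in sum. Of the 4 tested, Hba-a2 alone passed in edgeR, all 4 had an unadjusted p under 0.05 and 3 were marked by DESeq2. The 8 plasma-cell markers summed to 46.8, 49.5 and 43.6 TPM, of which Xbp1 alone had 33.0, 31.3 and 31.8, while Tnfrsf17 was at 0 in every library. None of the 5 tested passed in edgeR, with Jchain and Irf4 at an unadjusted p under 0.05 and Irf4 marked by DESeq2. The 8 monocyte and macrophage markers summed to 30.7, 24.8 and 27.5 TPM, lowest in replicate 2, and none of the 5 tested passed in edgeR, with 1 at an unadjusted p under 0.05 and 0 marked by DESeq2. The part of other cells in the levels of the constant genes was not tested, and in bulk RNA fewer cells of a type and less RNA per cell cannot be told apart.

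Set against the summed B-cell markers within each library, Ighd kept the steadiest ratio of the 3 genes compared and Ighm the least steady. Ighd had 0.177, 0.212 and 0.195 of the marker sum, with a coefficient of variation of 9.09%. Igkc had 1.13, 1.38 and 1.00 of it, with 16.7%. Ighm had 7.31, 5.37 and 8.76 of it, with 23.8%, and was lowest against the markers in replicate 2. Against Trac the coefficient of variation was 5.80% for Ighm and 48.1% for Igkc. Iglc1 and Iglc2 were not compared in this way, and with 3 libraries no test of these differences was made.

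**Figure D4:**
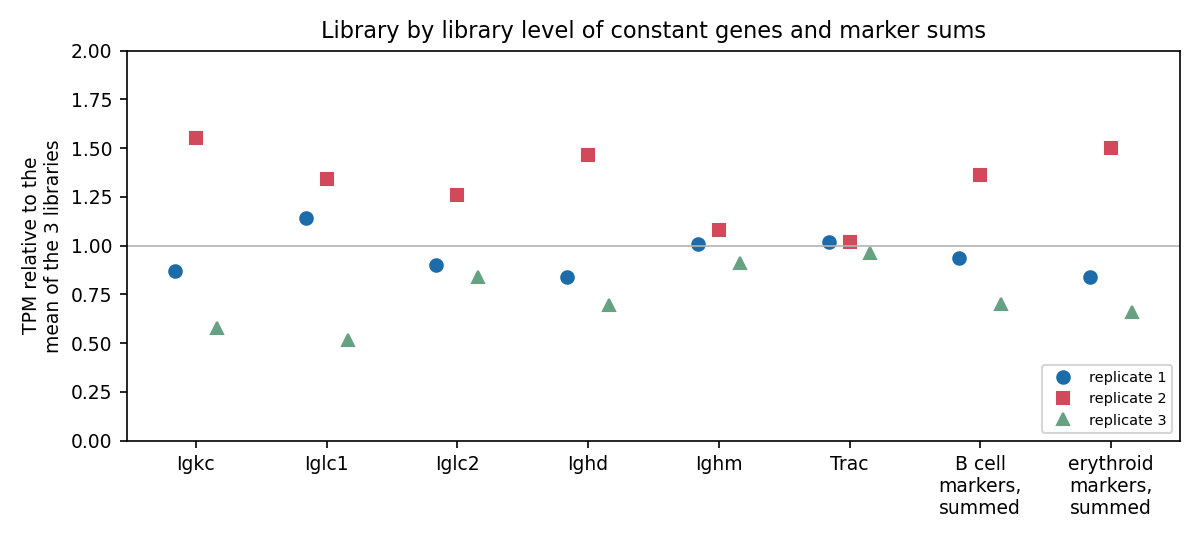
TPM of selected constant genes, of Trac and of summed B-cell and erythroid markers in each library, divided by the mean of the 3 libraries (linear axis from 0, line at 1). Igkc spans 0.580 to 1.55 and the B-cell markers 0.703 to 1.36, whereas Ighm spans 0.910 to 1.08 and Trac 0.961 to 1.02.

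Among the 75 genes that varied beyond the trend, those with a pattern across the 3 libraries most like that of Igkc were Hba-a2, an alpha globin, followed by Gm43305, Gm10335, Cdk5rap1 and Rps4x-ps. Likeness was the Euclidean distance of log2(TPM + 1) after centring each gene on its mean over the 3 libraries, and it was 0.224 for Hba-a2 and 0.358 to 0.375 for the others. Hba-a2 had 11.5, 26.1 and 8.10 TPM. The nearest to Ighm by the same measure was Ttn at 0.271, followed by Gm24407, Egr1, Sfi1 and Atf4 at 0.355 to 0.371. Ttn had only 0.29, 0.12 and 0.21 TPM, so its log2 values hardly moved. None of these genes had the library order of Ighm, which was lowest in replicate 3 and was not itself among the 75. Ttn was lowest in replicate 2 and the others in replicate 1. A small distance to Ighm thus does not mean a like pattern here.

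Most partners of the antibody chains stood below 10 TPM, as did most coding and constant-region genes. Of all those genes, 44.7% reached 1 TPM in all libraries and 25.4% reached 10 TPM, shares to set beside the counts of this list and the following ones. Cd79a and Cd79b, which carry the signal of surface antibody, had 1.99, 3.78 and 1.69 TPM and 3.87, 3.94 and 3.55 TPM. Ighm had 71.0, 39.9 and 75.2 times the TPM of Cd79a, and Igkc 10.9, 10.3 and 8.60 times. Of 12 B-cell receptor signalling genes, 7 reached 1 TPM in all libraries and 2 reached 10 TPM, namely the phosphatase Ptpn6 at 73.1 ± 4.99 TPM and the inhibitory receptor Cd72 at 11.6 ± 1.61 TPM (SD, n = 3). The tetraspanin Cd81 followed at 8.32 TPM, the kinase Syk at 3.10 and the kinase Lyn at 2.55 TPM. The lowest were Siglecg, an inhibitory lectin, at 0.813 TPM and Fcgr2b, the inhibitory IgG receptor, at 0.65 TPM. None of the 11 tested passed for spread in edgeR, 1 (Blnk) had an unadjusted p under 0.05 and DESeq2 marked 0.

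Surrogate light chain genes, which pair with mu chains in precursor B cells, were near 0: Vpreb1, Vpreb2 and Vpreb3 averaged 0.29, 0.373 and 0.0767 TPM, and Igll1 had 0. Of 11 genes for Fc receptors and antibody transport, 4 reached 1 TPM. Trim21, a cytosolic antibody receptor, had 22.5 ± 2.10 TPM and Fcgrt, the neonatal Fc receptor, 9.38 ± 0.523 TPM (SD, n = 3). Fcmr, the receptor for IgM, had 1.19, 1.80 and 1.11 TPM. Fcamr and Pigr, receptors for IgA and IgM, were at 0. None of the 5 tested passed in edgeR, with 0 at an unadjusted p under 0.05 and 0 marked by DESeq2.

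The enzymes that start rearrangement were at or near 0. Rag1 had 0, 0.01 and 0 TPM and Rag2 had 0 in every library, while Dntt, which adds bases at the joints, had 1.00, 1.23 and 1.21 TPM. The joining factors of general DNA repair were present, led by Xrcc6 at 10.9 TPM, Prkdc at 9.91 and Dclre1c at 8.96 TPM, and 8 of 10 genes of this list reached 1 TPM. Of 9 genes listed for class switching and hypermutation, 7 reached 1 TPM, with the repair factors Trp53bp1 at 28.0 and Rif1 at 24.1 TPM. None of the 8 tested in each list passed for spread in edgeR, with 0 at an unadjusted p under 0.05 and 0 marked by DESeq2.

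Of 18 transcription factors that act on immunoglobulin genes, 16 reached 1 TPM and 9 reached 10 TPM. Ets1 had 283 ± 4.75, the Ikaros gene Ikzf1 187 ± 3.46, Runx1 58.3 ± 0.737, Ikzf3 54.8 ± 3.64 and the E protein Tcf12 51.9 ± 3.89 TPM (SD, n = 3 each). The factors that define B cells were low, with Ebf1 at 0.53, 1.03 and 0.50 TPM and Pax5 at 1.64, 1.61 and 1.01 TPM. Pou2af1, the B-cell octamer coactivator, had 3.95 TPM and Spi1 (PU.1) 1.24 TPM. None of the 18 passed for spread in edgeR, while 5 had an unadjusted p under 0.05 (Spi1, Spib, Irf4, Irf8 and Pax5) and DESeq2 marked Irf4.

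Of 10 genes linked to the choice between the secreted and membrane 3' ends, 9 reached 1 TPM and 7 reached 10 TPM. The RNA-binding protein gene Hnrnpf had 293 ± 6.28, the splicing factor Srsf3 150 ± 4.86 and the cleavage factor Pcf11 85.4 ± 4.05 TPM (SD, n = 3 each). Cstf3 and Zfp318, a factor needed for Ighd expression in B cells, had 17.6 and 14.7 TPM. Ell2, an elongation factor that favours the secreted form in plasma cells, had 1.23, 1.17 and 2.55 TPM, and Eaf2 was lowest at 1.28 TPM. None of the 10 passed for spread in edgeR, with 0 at an unadjusted p under 0.05 and 0 marked by DESeq2.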

How the data were processed

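The authors deposited 3 tables per library, each used here. Estimated counts, TPM and FPKM stand in the gene table and in one transcript table (the first), per the file headers. The second transcript table has estimated counts and TPM, per the file headers. The README files deposited with the samples name mm10 and GENCODE M21. Aligner, quantifier and strand setting: not given in the sources used here. Length minus effective length was 100 bases in the entries of the first tables, apart from those with an effective length of 0, such as D and J segments. Parental alleles were not analysed here.

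The members and lists were chosen with earlier results of these data known. Main values are the TPM of the gene table, summarised over the 3 libraries. V and constant counts were summed per locus. Ighm transcripts were classed by their annotated exons, and sequences were read from the GENCODE M21 transcripts. For the spread test, estimated counts were rounded and fitted in edgeR with an intercept only, filterByExpr, TMM scaling and a robust trend, over all genes. The test was run beforehand on simulated counts that had the same dispersion for every gene. That setting differs from these data, so it does not show how often the calls here are false. The genes named are all members, up to 5 highest and 2 lowest per list, the 3 highest V genes per locus, transcript entries with at least 10% of a member, and the genes nearest to Igkc and Ighm, besides others chosen after their values were seen, namely Pax5, Pou2af1, Dntt and list genes with an unadjusted p under 0.05. Some genes that the rule names are not reported here. Of 128 listed symbols, 1 had no match. Counts of 25 or fewer carry wide Poisson intervals, which cover counting error only.

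Alternatives were the second transcript table, FPKM, posterior mean TPM, TMM-scaled CPM, other filters, DESeq2, and each replicate left out. Software was R 4.3.3, edgeR 4.0.16, limma 3.58.1, DESeq2 1.42.0, Python 3.11.15, numpy 2.4.6, pandas 2.3.3, scipy 1.17.1, biopython 1.88 and matplotlib 3.10.9.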

Additional observations from a re-analysis of the deposited data

How the results depend on the processing

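Of 80 alternatives to the answers of the comparisons, 64 stayed within the spread of the main value or on its side of the threshold. None reversed a direction. Among the 64 was the log2 difference of kappa and heavy without Ighm in the denominator. That difference kept its direction but fell to 0.75, against 5.32, far beyond its spread. TMM-scaled CPM values, which are not divided by length, gave a median level of 1.33 in place of 2.51 TPM and an Igkc to Ighm ratio of 0.0513 in place of 0.175. Estimated counts gave Ighm-201 a share of 55.7% in place of 59.0%. The V counts per 100 constant counts of the heavy chain were 0.948 with V segments whose posterior SD was at most 5% of the count, 7.35 in TPM and 30.6 without Ighm, against 1.32, and those of kappa were 30.6 and 85.9 under the first and second of these, against 53.0. Genes called for spread were 303 with no filter, 28 with a non-robust fit and 125 by DESeq2's marking of outlying dispersion, against 75. The members called were 0 with the non-robust fit, against 1.

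Leaving out each replicate gave 1.87 to 2.89 TPM for the median level, 94.9% to 96.1% for the Ighm share, 69.9% to 73.2% for the Igkc share, 0.134 to 0.206 for the Igkc to Ighm ratio and 57.8% to 60.4% for Ighm-201. It gave 43.6 to 59.5, 12.0 to 22.6 and 1.13 to 1.45 V counts per 100 constant counts for kappa, lambda and heavy, 5.02 to 5.58 for the log2 difference of kappa and heavy, 35 to 85 genes called and 0 to 1 members called. Of 70 alternatives for single members, 64 moved less than the spread between libraries. No paired analysis was possible because all libraries belong to 1 group. Depth limits the gamma and alpha genes most, at 17 to 48 summed counts.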
